A study of Homo sapiens with 3 samples.

Results

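miR-423 is a human microRNA whose precursor hairpin gives a mature strand from each of its sides, miR-423-5p and miR-423-3p. Both were followed in small RNA from extracellular vesicles (EVs) of HepG2 cells. They were found by name and are 2 of the 512 miR names in the count table. They were chosen by their measured abundance in these counts, so their levels are given as a description, with no test. HepG2 is an established cell line derived from a human liver tumor, labeled as wildtype hepatocytes, and EVs are membrane-bound particles that cells release into the medium. All 3 samples belong to 1 group. Cells grown in medium with serum were switched to serum-free medium, and EVs were pelleted from the 48 h supernatant by ultracentrifugation. The 3 batches had no other condition to be set against, and comparisons run from batch to batch. Nothing in the sources states that the batches came from separate cultures, and p-values here set 1 library per batch against counting noise and may reflect technical spread. HepG2 is a single tumor-derived line, so the values describe that line and not liver tissue.

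A microRNA is cut from a hairpin, first in the nucleus and then in the cytoplasm, into a duplex of a 5p and a 3p strand. One strand of the duplex is usually kept in an Argonaute protein and the other is degraded. The kept strand finds its target mRNAs mainly through its seed, bases 2 to 8 from the 5′ end, which pairs with sites in 3′ UTRs. miR-423 is expressed in many tissues, and both of its arms have been used as reference miRs in measurements of tissue and serum.

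The arms are shown first because target sites are found mainly through their seeds. The hairpin, MIR423, has 94 bases and lies at chr17:30117079-30117172 on the plus strand of GRCh38. RefSeq places miR-423-5p at chr17:30117095-30117117 and miR-423-3p at chr17:30117131-30117153, with 13 bases between them. Capitals mark the seed, and the sequences are those of RefSeq for GRCh38.p14.
hsa-miR-423-5p: uGAGGGGCagagagcgagacuuu
hsa-miR-423-3p: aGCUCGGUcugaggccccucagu
The arms do not share a seed. Each mature arm has 23 bases, with 56.5% G and C in miR-423-5p and 65.2% in miR-423-3p. Among the 56 tested miRs with a sequence, the median was 50% (range 36.4% to 72.7%), and 16 had more G and C than miR-423-5p while 3 had more than miR-423-3p. In the fold predicted by RNAfold, with a minimum free energy of -48.8 kcal/mol, 17 base pairs joined the arms. All 7 seed bases of miR-423-5p were paired with the other arm, and 6 of the 7 seed bases of miR-423-3p were. At both 5′ ends the first 4 bases were paired, 2 of them as G:C pairs, so this count did not set the ends apart.

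MIR423 lies near the start of NSRP1, a gene for a nuclear speckle protein that takes part in splicing. The hairpin begins 263 bases after the RefSeq start of NSRP1. Of the 17 NSRP1 transcripts in GENCODE 29, 11 held the hairpin inside an intron and 1 inside an exon. It partly overlapped an exon of 2 transcripts, and 3 did not reach it.

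The minus strand of the same locus carries a second hairpin, MIR3184, at chr17:30117086-30117160. Its arms are shown because they are complementary to those of miR-423.
hsa-miR-3184-3p: aAAGUCUCgcucucugccccuca
hsa-miR-3184-5p: uGAGGGGCcucagaccgagcuuuu
Capitals again mark the seed. miR-3184-3p is the exact reverse complement of miR-423-5p, and a run of 21 bases in miR-3184-5p is complementary to miR-423-3p. miR-3184-5p also has the seed of miR-423-5p, and it was the only other mature miR in the RefSeq table that did. None shared the seed of miR-423-3p. No miR-3184 name was in the count table, and miR-3184 is not analysed here. How reads of the 2 strands were assigned was not given in the sources used here. Of the 512 names, 451 had a RefSeq sequence, and the closest of them to miR-423-5p differed by 9 edits and the closest to miR-423-3p, miR-2277-5p, by 7. An edit here is a base changed, added or removed. Neither arm therefore had a near-identical partner among those names with which its reads could be confused.

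**Figure D1:**
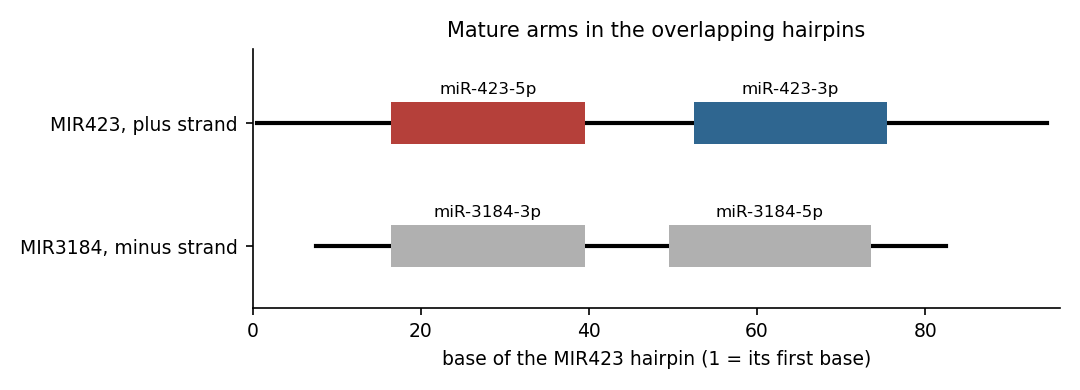
Position of the mature arms in the hairpins MIR423 (plus strand, above) and MIR3184 (minus strand, below), in bases counted from the start of the 94-base MIR423 hairpin. Black lines are hairpins and boxes are mature arms. The box of miR-3184-3p covers the same 23 bases as that of miR-423-5p.

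The batches held 8704, 10834 and 7933 miR counts, and 316 of the 512 names had at least 1 count. In the shallowest batch a miR with no count could still hold up to 0.0378% (3 counts of the total). Intervals and this limit describe counting error alone, since no molecular identifiers were read and PCR copies of 1 molecule may be counted repeatedly. Of the marker lists, 4 hepatocyte miRs summed to 15.8%, 16.6% and 16.1% of the counts in batches 1, 2 and 3. Most of this was miR-148a-3p, with 10.5%, 12.6% and 11.2%. miR-122-5p held 2.48%, 0.905% and 1.64%, a 2.74-fold difference between batches. Lists for blood, endothelial, stromal and muscle cells, with 15 miRs of which 13 were in the table and 6 had a count, summed to 0.195%, 0.0738% and 0.0882%.

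miR-423 was among the leading miRs of HepG2 EVs on both arms. miR-423-5p made up 9.27% ± 1.85 of the miR counts (SD, n = 3 batches) and was number 4 by mean share. miR-423-3p made up 3.21% ± 0.409 (SD, n = 3 batches) and was number 7. The arms together held 12.5% ± 1.45 of all miR counts (SD, n = 3 batches).

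For miR-423-5p, 645, 1007 and 881 reads were counted in batches 1, 2 and 3. These were shares of 7.41% (95% Wilson interval 6.88% to 7.98%), 9.29% (8.76% to 9.86%) and 11.1% (10.4% to 11.8%) of the batch totals. No interval overlapped another, with batch 1 lowest and batch 3 highest. Its rank within a batch was 5 in batch 1 and 4 in batches 2 and 3.

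For miR-423-3p, 318, 338 and 226 reads were counted in batches 1, 2 and 3. These were shares of 3.65% (95% Wilson interval 3.28% to 4.07%), 3.12% (2.81% to 3.46%) and 2.85% (2.50% to 3.24%). Here batch 1 was highest, and the intervals of neighboring values overlapped. Its rank was 7, 6 and 7.

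On plain totals the sum of the arms varied less between the batches than miR-423-5p did. It was 11.1% in batch 1 (963 counts), 12.4% in batch 2 (1345 counts) and 14.0% in batch 3 (1107 counts). The coefficient of variation over the batches was 19.9% for miR-423-5p, where counting alone would give 3.31%. It was 12.8% for miR-423-3p, against 5.79% from counting, and 11.6% for the sum, against 2.80%.

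**Figure D2:**
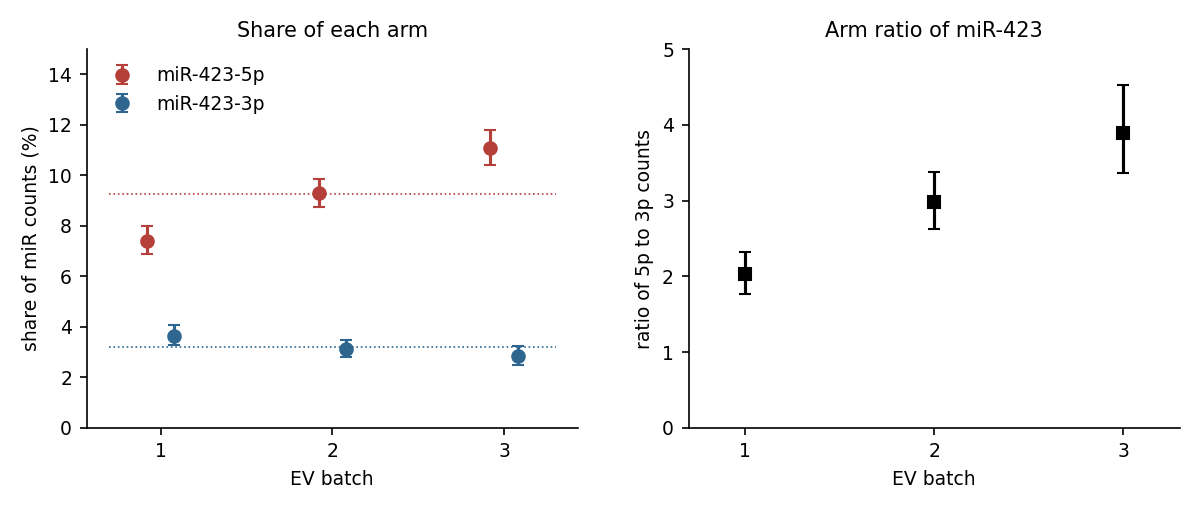
Left, the share of the miR counts in percent for miR-423-5p and miR-423-3p in each EV batch, with 95% Wilson intervals and dotted lines at the means of the batches. Right, the ratio of 5p to 3p counts with its 95% Clopper-Pearson interval. miR-423-5p ran from 7.41% to 11.1% and miR-423-3p from 2.85% to 3.65%, and the ratio was lowest in batch 1 and highest in batch 3.

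The place of each arm among the miRs next to it in mean share was not the same in every batch. Just above miR-423-5p stood miR-320a, with 7.42%, 10.7% and 11.5% in batches 1, 2 and 3. miR-423-5p was lower in 3 of 3 batches, by as little as 0.0115 percentage points in batch 1, and its difference from miR-320a averaged -0.603 ± 0.739 points (SD, n = 3). Just below stood miR-483-5p, encoded within the IGF2 gene, with 7.74%, 8.34% and 8.41%. miR-423-5p exceeded it in 2 of 3 batches, by 1.11 ± 1.52 points on average (SD, n = 3). The place of miR-483-5p relative to miR-423-5p thus changed between batches.

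Just above miR-423-3p stood miR-21-5p, widely expressed and raised in many tumors, with 7.32%, 2.47% and 2.76% in batches 1, 2 and 3. The mean difference, -0.977 ± 2.34 points (SD, n = 3), rested on batch 1, and miR-423-3p was the higher of the pair in the other batches. Just below stood miR-192-5p, an abundant liver and gut miR, with 2.69%, 3.02% and 3.26%, which miR-423-3p exceeded in 2 of 3 batches, by 0.217 ± 0.698 points (SD, n = 3). With 3 batches an exact sign-flip test cannot give a two-sided p below 0.25, so none is given for these pairs, and each mean difference was smaller than its SD.

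miR-423-5p outnumbered miR-423-3p in every batch. The ratio of 5p to 3p counts was 2.03 in batch 1 (95% interval 1.77 to 2.33), 2.98 in batch 2 (2.63 to 3.38) and 3.90 in batch 3 (3.36 to 4.53). As a part of the counts of both arms, miR-423-5p held 67.0%, 74.9% and 79.6% in these batches. On the log2 scale, with 0.5 added to both arms, the ratio was 1.02, 1.57 and 1.96, with a mean of 1.52 ± 0.47 (SD, n = 3).

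The arm ratio does not depend on how the batch totals are scaled. It was 1.92-fold higher in batch 3 than in batch 1, 1.47-fold higher in batch 2 than in batch 1 and 1.31-fold higher in batch 3 than in batch 2. Arm counts of each precursor were compared over the batches by an exact Fisher-Freeman-Halton test, in which 13.0% of the precursors were called (3 of 23, Benjamini-Hochberg adjusted p under 0.05). miR-423 was called, with an adjusted p of 1.17e-08 by this exact test. The call rested on batch 1. Without it, the exact test gave miR-423 an adjusted p of 0.102 (unadjusted 0.00599) and called 0 of 17 precursors, with 2 at an unadjusted p under 0.05. Without batch 3, the adjusted p of miR-423 was 0.000795 by the exact test.

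The other precursors called were miR-148a and miR-483. For miR-148a, whose 3p arm is abundant in hepatocytes, the 5p arm had 23, 7 and 7 counts and the 3p arm 914, 1367 and 888 in batches 1, 2 and 3. For miR-483 the 5p arm had 674, 904 and 667 counts and the 3p arm 55, 35 and 25. The adjusted p by the exact test was 0.00133 for miR-148a and 0.00399 for miR-483. In all 3 precursors called, the less abundant arm took its largest part of the counts in batch 1.

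Batch 1 held more of the less abundant arms in sum as well. Over the 22 precursors other than miR-423 with both arms counted, the less abundant arms made up 3.35% of both arms in batch 1 (155 of 4624 counts), 1.76% in batch 2 (102 of 5807) and 1.74% in batch 3 (73 of 4188). These 22 include miR-483 and miR-148a, called above, whose less abundant arms gave 55 and 23 of the 155 counts in batch 1. The less abundant arm had its highest part in batch 1 alone in 9 of these 22 precursors, so the sum does not describe each of them. In miR-99b, next after miR-483 by counts of this arm, the part was smallest in batch 1. Its 3p arm had 12, 20 and 12 counts and its 5p arm 132, 83 and 54. The order seen for miR-423-3p as a part of both arms, highest in batch 1 and lowest in batch 3 with batch 2 between, was found in 3 of the 22. Markers of other cell types, in sum, also had their largest share in batch 1, at 0.195%. This rested on 17 counts, against 8 in batch 2 and 7 in batch 3. The blood cell list went the other way, with 0, 2 and 1 counts. The part of these markers in the arm ratios was not tested.

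Among precursors, miR-423 stood out by the count of its less abundant arm. It was the only precursor with both arms among the 30 most abundant miRs. The 882 counts of miR-423-3p were 7.67 times the 115 counts of miR-483-3p, the next largest of the less abundant arms. The arms of miR-423 were not the most even in count, since 4 of the 23 precursors had a smaller mean log2 ratio in size (miR-425, miR-339, miR-30e and miR-361). The median size of the mean log2 ratio over the 23 was 4.33. The 5p arm was the more abundant arm in 11 precursors and the 3p arm in 12. These values describe levels for which miR-423 was chosen, and no test is given.

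**Figure D3:**
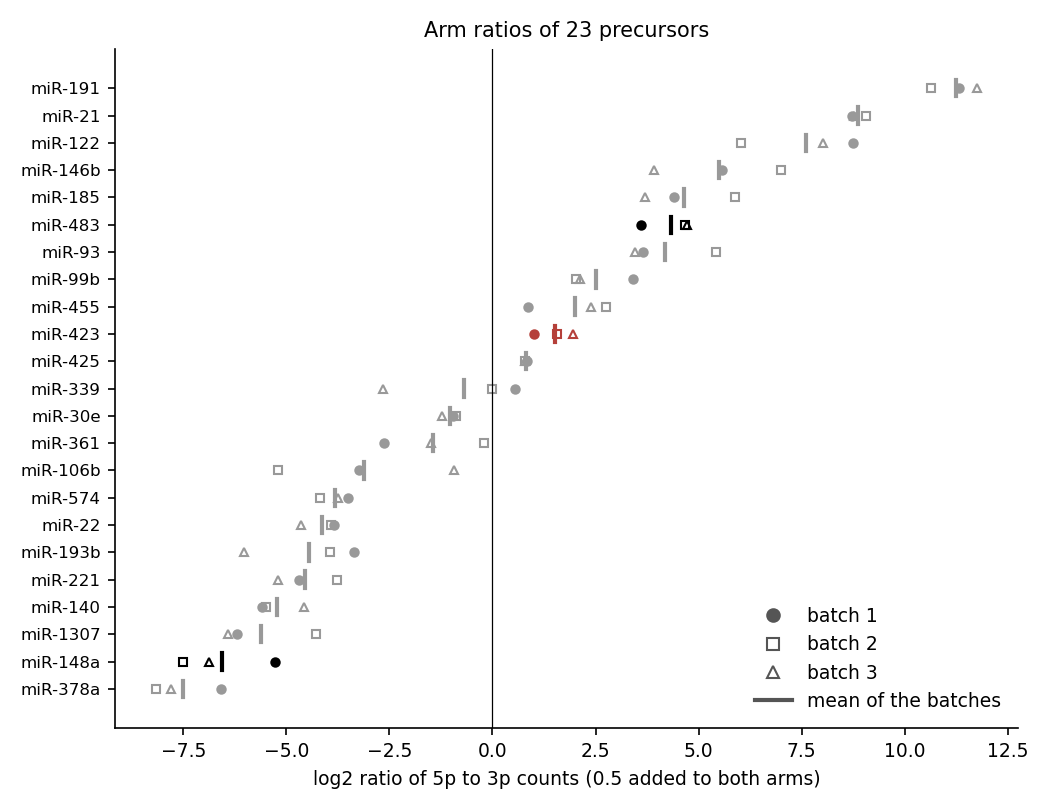
The log2 ratio of 5p to 3p counts, with 0.5 added to both arms, for the 23 precursors with at least 30 counts and both arms counted. Symbols are batches 1, 2 and 3, bars are the means of the batches, miR-423 is in red, and the other precursors called by the exact test are in black. Values above 0 mean more 5p counts, and miR-423 sits at 1.02, 1.57 and 1.96.

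Both arms differed between the batches as shares of the total, in opposite directions, and for miR-423-3p this depended on the scaling. An exact multinomial test compared the shares of all miRs that reached 30 counts over the batches, and it called 39.1% of the miRs (25 of 64 at an adjusted p under 0.05). Both arms had enough counts to be tested. The number of calls rested on batch 1, since 4 of 50 miRs were called without it. miR-423-5p was 1.50-fold higher in batch 3 than in batch 1, with an adjusted p of 4.59e-13 by the exact test. It was called also without any 1 of the batches, with an adjusted p between 5.98e-14 and 0.00301 by the exact test. Only 3.12% of the miRs tested (2 of 64) were called with their highest share in batch 3, miR-423-5p and miR-320a. miR-423-3p was 1.28-fold higher in batch 1 than in batch 3, with an adjusted p of 0.0343 by the exact test, and 29.7% of the miRs (19 of 64) were called with their highest share in batch 1. This call was lost without batch 1 (adjusted p of 0.838 by the exact test) and without batch 3 (0.125).

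A change of scaling moved every miR alike. TMM factors of edgeR lowered batch 1 by 0.29 on the log2 scale and raised batch 2 by 0.16 and batch 3 by 0.13. On this scale miR-423-5p was lowest in batch 1 at 6.05%, with 10.4% in batch 2 and 12.2% in batch 3, a 2.02-fold difference. miR-423-3p turned round on this scale, with its lowest value, 2.98%, in batch 1, its highest, 3.48%, in batch 2 and 3.13% in batch 3. It was not called (adjusted p of 0.254 by the exact test). With TMM totals 22 miRs were called, of which batch 1 was the highest for 8, batch 2 for 9 and batch 3 for 5. With plain totals these numbers were 19, 4 and 2 of 25.

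Over the 3 batches the arms did not follow each other, and on plain totals they ran in opposite directions. With TMM totals both arms were lowest in batch 1. On plain totals, miR-423-5p stood at -0.30, 0.02 and 0.28 in batches 1, 2 and 3, relative to its geometric mean on the log2 scale. In the same way miR-423-3p stood at 0.20, -0.03 and -0.16. Likeness was measured as the root mean square difference of these log2 deviations over the 3 batches, against 63 other miRs. The most similar to miR-423-5p were miR-484 (0.0349), miR-193b-3p (0.0384) and miR-1292-5p (0.0435). For miR-484 the shares were 0.345%, 0.434% and 0.492%, in the same order as those of miR-423-5p at a much lower level. miR-423-3p was 25th in likeness to miR-423-5p, with a difference of 0.387. The most similar to miR-423-3p were miR-941 (0.0246), miR-23b-3p (0.0395) and miR-330-3p (0.0508), and miR-423-5p was 44th. None of these 6 nearest miRs was itself called between the batches (adjusted p between 0.436 and 0.726 by the exact multinomial test), so their patterns were not told from counting noise. These places describe 3 libraries that all miRs share.

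**Figure D4:**
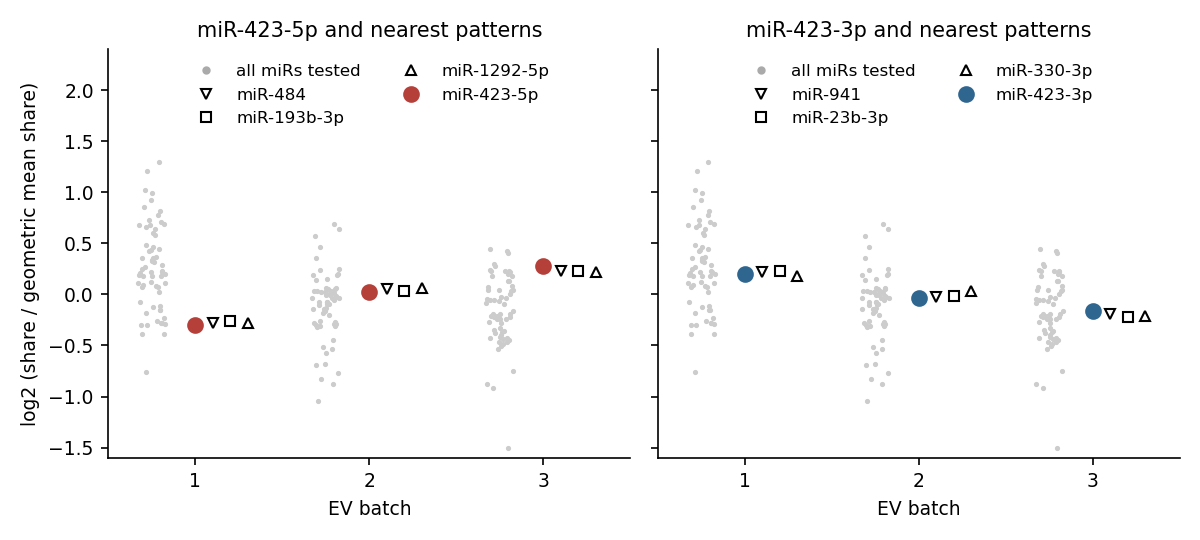
The log2 of each share of the plain totals over its geometric mean of the batches, by EV batch, for miR-423-5p (left) and miR-423-3p (right) as large dots. Open symbols are the 3 miRs nearest in pattern and gray points are all 64 miRs tested. miR-423-5p was lowest in batch 1 at -0.30 and miR-423-3p highest there at 0.20.

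Since both arms have served as reference miRs, they were set beside 7 others used in that way. Of the 9 in all, 7 had enough counts for the exact multinomial test and 5 of these were called, where 39.1% of all miRs were. The 5 include both arms of miR-423 themselves, and the others are miR-191-5p, miR-26a-5p and miR-425-5p. miR-191-5p, the most abundant miR here, had 14.6%, 22.0% and 21.8% in batches 1, 2 and 3, with a coefficient of variation of 21.5%. miR-26a-5p, which is expressed in many tissues, had 1.75%, 0.988% and 0.756%, and miR-425-5p, which is cut from the same primary transcript as miR-191, had 0.253%, 0.0831% and 0.113%. These shares varied by 44.5% and 60.4% over the batches, more than either arm of miR-423.

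The 2 reference miRs that were tested and not called had smaller folds between batches than miR-425-5p. That miR had 40 counts, a 3.04-fold difference and an adjusted p of 0.0229 by the exact test. Their folds were larger than the 1.28-fold of miR-423-3p, which was called with 882 counts. A call thus depended on the number of counts as well as on the fold. miR-93-5p, of the miR-106b cluster, had 158 counts over the batches and a 1.34-fold difference (coefficient of variation 14.7%, adjusted p of 0.485 by the exact test). miR-484 had 116 counts and a 1.43-fold difference (17.5%, adjusted p of 0.475 by the exact test). Their variation lay between those of miR-423-3p at 12.8% and miR-423-5p at 19.9%. miR-16-5p, a common reference in blood, had 1 count in sum and miR-103a-3p had 17, both too few to test. Among the 64 miRs tested, with a median coefficient of variation of 23.1%, miR-423-3p had the 9th smallest and miR-423-5p the 27th smallest. Counting error is part of each coefficient and is larger for miRs with few counts. The coefficients and these places therefore do not compare steadiness beyond counting.

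**Figure D5:**
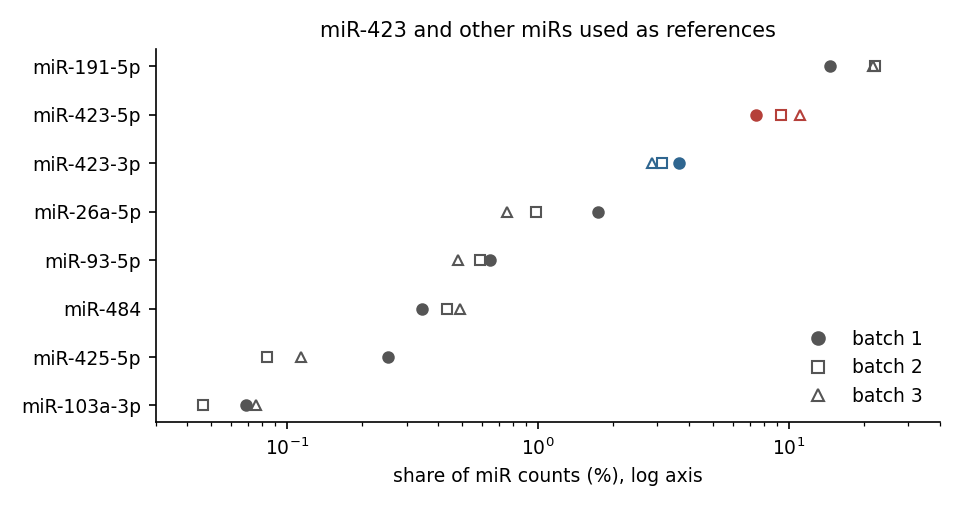
Shares of the miR counts in percent, on a log axis, of miR-423-5p (red), miR-423-3p (blue) and 6 other miRs used as references, with symbols for batches 1, 2 and 3. miR-16-5p, with 1 count, is left out. miR-425-5p and miR-26a-5p spread more widely over the batches than either arm of miR-423.

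The study asked whether abundant EV miRs could target genes of fibrosis, so the sites it listed for miR-423 were examined by sequence. The list held 24 distinct site sequences for miR-423-5p, in 21 genes, and 7 for miR-423-3p, in 6 genes. All were in collagens, matrix metalloproteinases (MMPs, which cut matrix proteins), their tissue inhibitors (TIMPs), ACTA2 (smooth muscle actin, made by activated stellate cells) or MMP24OS, a gene antisense to MMP24. MMP15, MMP19, MMP24, MMP8 and TIMP2 had sites of both arms. Of the 31 sequences, 30 matched a 3′ UTR that GENCODE 29 annotates for their gene.

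Pairing to the whole seed was rare among these sites. For miR-423-5p, 2 of 24 sites, in MMP14 and MMP24OS, were Watson-Crick paired to bases 2 to 8, and 1 more, in MMP24, to bases 2 to 7. None of the 7 sites of miR-423-3p was paired to bases 2 to 7. These 3 sites are shown 5′ to 3′ as DNA, with the longest run paired to miR-423-5p in capitals, and where a site was longer than 30 bases only its last 24 are given. Where runs of a site were equally long, the first in the site was taken.
MMP14: ccctttccagcCTCTGCCCCTCAg
MMP24OS: gggcccccagtgcttTGCCCCTCt
MMP24: gtgtccccatctgtggaCCCCTCt
The MMP14 site, at chr14:22846240-22846293 on the plus strand, had a run of 12 bases that paired with bases 1 to 12 of miR-423-5p. A site in COL5A1, named after its values were seen, had a run of the same length, to bases 11 to 22. MMP14 encodes a membrane-bound collagenase that also activates MMP2. The MMP24OS site, at chr20:35276853-35276884 on the minus strand, had a run of 8, to bases 2 to 9. The MMP24 site, at chr20:35276504-35276534 on the plus strand, had a run of 6.

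The listed sites in ACTA2 and the TIMP genes did not pair with the whole seed. They are shown in the same way, with the first 3 for miR-423-5p and the last for miR-423-3p.
ACTA2: ctcCTCTCTGtctcta
TIMP2 for miR-423-5p: gggtcttgctgTGCCCtc
TIMP3: aacatgattGCTCTCTGtctcttt
TIMP2 for miR-423-3p: gtgggaGCCTCcctctgagcc
The ACTA2 site, at chr10:88935195-88935210 on the minus strand, had a longest run of 7, to bases 8 to 14 of miR-423-5p. The TIMP3 site, at chr22:32861037-32861084 on the plus strand, had a run of 8, to bases 8 to 15. In TIMP2 the runs marked were 5 bases each. The run for miR-423-5p paired with its bases 5 to 9 (chr17:78854671-78854688, minus strand). The run for miR-423-3p paired with its bases 11 to 15 (chr17:78855017-78855037, minus strand). The last 5 bases of the TIMP2 site of miR-423-5p form a run just as long, which pairs within the seed. The TIMP2 site of miR-423-3p also held a further run of this length, outside the seed. Over all listed sites, the median longest run was 5.5 bases for miR-423-5p (range 5 to 12) and 5 for miR-423-3p (range 5 to 9). With the first run taken where runs tied, the longest run began after base 8 in 9 of the 24 sites of miR-423-5p. For miR-423-3p it did so in 7 of the 7 sites. Among the 9, a site in MMP2 and a site in MMP8 also held a run just as long that reached into the seed. Other ties were not counted, so these numbers depend on the choice of run.

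The same genes were also searched for the seed match itself. The heptamer GCCCCTC, the DNA complement of the miR-423-5p seed read on the sense strand only, was in 12 of 72 longest 3′ UTRs of ACTA2 and the collagen, MMP and TIMP genes (16.7%) and in 3200 of 19454 longest 3′ UTRs of all protein-coding genes (16.4%). The fibrosis genes thus held it about as often as all genes did, at a median UTR length of 1208 bases against 1336. The 12 were 7 collagen genes (COL1A1, COL4A1, COL4A6, COL8A2, COL9A3, COL20A1 and COL27A1) and 5 MMP genes (MMP2, MMP14, MMP15, MMP19 and MMP25). COL20A1 had 4 copies and MMP15 had 2. The longest 3′ UTR was taken over all annotated transcripts of a gene, so it need not be that of the main transcript. In COL4A1 the heptamer lay at chr13:110241235-110241241, whereas the site listed for miR-423-5p lay at chr13:110191413-110191435. The heptamer ACCGAGC of miR-423-3p, which holds a CG, was in 1 of the 72 (1.39%), in MMP28, and in 495 of all 19454 (2.54%).

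Of the 12 genes with GCCCCTC, 6 were in the site list of miR-423-5p, and in 1 of these, MMP14, the listed site held the heptamer. COL1A1, the main chain of type I collagen, was not listed. The heptamer of COL1A1 is from its longest annotated 3′ UTR, which need not be that of its main transcript. COL1A1 is shown as a gene chosen after its sequence was seen, with the heptamer in capitals, which lies at chr17:50184852-50184858 on the minus strand.
COL1A1: ccgggggagccaccaGCCCCTCact
A match is a description of sequence and not a measured site, and no mRNA was measured in these libraries.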

How the data were processed

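Small RNA of 3 EV batches was sequenced by the authors with a NEBNext library kit on an Illumina MiniSeq, and read quality was checked with miRTrace. The authors deposited raw counts per miR and batch, not normalized. A second deposited table held 205 of the 512 names with the same 3 counts, and its column of the authors' mean values was not used. The submitters' processing notes name GRCh38. No aligner, counting tool or strand setting was given in the sources used here. Adapters join some sequences more readily than others, so shares of counts and of molecules can differ.

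Shares of the batch total (8704, 10834 and 7933 counts), Wilson 95% intervals, Clopper-Pearson intervals of the arm ratio and log2 ratios with 0.5 added were computed. Shares were compared between batches by an exact multinomial test (at least 30 counts in sum) and arm counts by an exact Fisher-Freeman-Halton test (at least 30 counts over both arms), two-sided, adjusted by Benjamini-Hochberg and called under 0.05. Both tests were tested on simulated data. Members and lists were chosen with earlier results of these data known. Named were the arms, the miRs next to them in mean share, the 3 nearest in pattern of each arm, 9 reference miRs, precursors with both arms among the 30 most abundant miRs or called, miRs of the same seed or of MIR3184, and listed sites with seed pairing or in ACTA2 and TIMP genes. The 4 precursors with more even arms, miR-99b and the genes with a heptamer were named after their values were seen. Site sequences came from the study's supplementary list, without its values, and were matched to GENCODE 29 transcripts. Sequences on chromosome 8 are not shown. Alternatives covered scaling (TMM in edgeR 4.0.16, size factors in DESeq2 1.42.0, totals without the 5 leading miRs), count minimums, pooling, the constant added and each batch left out. Python 3.11.15, numpy 2.4.6, scipy 1.17.1, pandas 2.3.3, matplotlib 3.10.9, R 4.3.3 and RNAfold 2.7.2 were used.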

Additional observations from a re-analysis of the deposited data

How the results depend on the processing

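The mean shares of both arms, their sum and the log2 arm ratio moved by less than 1 SD over the batches under TMM totals, DESeq2 size factors, pooled counts and other constants, where each was run. TMM and size factors scale the batches against each other, so a mean over them can move little. The SD did change with TMM totals. It was 3.16 points against 1.85 for miR-423-5p, 0.259 against 0.409 for miR-423-3p and 3.29 against 1.45 for the sum. With each batch left out in turn, which with 3 batches cannot move a mean by 1 SD, the means ran from 8.35% to 10.2% for miR-423-5p, from 2.98% to 3.39% for miR-423-3p and from 11.7% to 13.2% for their sum, and the log2 ratio from 1.30 to 1.77. With totals that left out the 5 most abundant miRs, miR-423-5p among them, the means were 23.4% for miR-423-5p and 7.77% for miR-423-3p, by construction. The difference of miR-423-5p between batches was called under every alternative run. That of miR-423-3p had a main adjusted p of 0.0343 by the exact test. It turned round, with batch 2 highest and batch 1 lowest, at an adjusted p of 0.254 with TMM totals, 0.478 with DESeq2 size factors and 0.121 with totals without the 5 leading miRs. With all 316 counted miRs tested it was 0.135 by the exact test, where more tests were adjusted for. Leaving out a batch in turn gave 0.0165 to 0.838 for this difference, 4 to 18 miRs called (4 of 50 without batch 1) against 25 of 64, 0 to 3 precursors called (0 without batch 1) against 3, and 1.77e-09 to 0.102 for the arm ratio of miR-423, all by the exact tests. Batch 1 was not told apart from the others by any label, and the cause was not tested. No paired analysis was possible because there was 1 group. With 7933 to 10834 counts per library, small differences of miRs with few counts may be missed.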
